A study of Mus musculus with 11 samples.

Results

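Id1, Id2, Id3, Id4, Bmp4, Bmpr1a, Bambi, Smad1, Smad5 and Smad6 were followed through RNA sequencing of mouse embryonic stem cells (ESCs). The genes were taken by symbol, as the inhibitor of differentiation (Id) genes and components of bone morphogenetic protein (BMP) signalling, and all 10 were found among the 23284 genes listed for each of 11 libraries. Wild-type (WT) ESCs and ESCs with knockout of Tet1, Tet2 and Tet3 (triple knockout, TKO), a line made in earlier work, were sequenced from ribodepleted total RNA with 2 libraries per group. They were taken without treatment (0 h) or after 4 h with α-amanitin at 10 µg/ml, which blocks RNA polymerase II and had water as its vehicle. A further group of 3 libraries was made from polyadenylated RNA of untreated WT ESCs. All cells were grown on gelatin in medium with fetal bovine serum and leukemia inhibitory factor (LIF). Whether the TKO cells are 1 clone was not given in the sources used here, and nothing in the labels says that replicates came from separate cultures, so p-values measure only the spread between these libraries.

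BMP ligands such as Bmp4 bind a receptor pair that includes Bmpr1a (also called ALK3), which phosphorylates Smad1 and Smad5. These Smads join Smad4, enter the nucleus and switch on genes of which Id1, Id2 and Id3 are classical examples. Id proteins have a helix-loop-helix but no DNA-binding region, and hold E proteins away from DNA. In mouse ESCs cultured with LIF, BMP acting through Id genes is known for restraining neural differentiation. The pathway limits itself: Smad6 blocks signalling inside the cell, and Bambi is a membrane pseudoreceptor that resembles a type I receptor without its kinase.

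Of these genes 4, Id2, Id3, Id4 and Smad6, were higher in TKO than in WT cells by more than 1.5-fold before treatment, so the 250 bases before their transcription starts are shown. They come from RefSeq promoters on GRCm38.p6, are written 5′ to 3′ on the gene's strand and end at the base before the start. Capitals mark GGCGCC, a GC-rich element bound by BMP-activated Smads that reads the same on both strands, and CAGAC or its reverse complement GTCTG, which hold the core of the Smad-binding element. The windows are chr12:25096093-25096342 on the minus strand for Id2, chr4:136143572-136143821 on the plus strand for Id3, chr13:48260866-48261115 on the plus strand for Id4 and chr9:64022060-64022309 on the minus strand for Smad6.
Id2: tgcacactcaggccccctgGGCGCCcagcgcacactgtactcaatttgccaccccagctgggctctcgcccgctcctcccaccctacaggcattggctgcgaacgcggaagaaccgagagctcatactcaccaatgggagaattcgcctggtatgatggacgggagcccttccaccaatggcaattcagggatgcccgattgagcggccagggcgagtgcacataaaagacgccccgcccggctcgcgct
Id3: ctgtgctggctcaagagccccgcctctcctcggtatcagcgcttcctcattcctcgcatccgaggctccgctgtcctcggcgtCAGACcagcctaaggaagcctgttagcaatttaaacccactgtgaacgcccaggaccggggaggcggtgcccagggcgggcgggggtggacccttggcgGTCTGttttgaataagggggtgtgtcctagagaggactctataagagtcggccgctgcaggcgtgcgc
Id4: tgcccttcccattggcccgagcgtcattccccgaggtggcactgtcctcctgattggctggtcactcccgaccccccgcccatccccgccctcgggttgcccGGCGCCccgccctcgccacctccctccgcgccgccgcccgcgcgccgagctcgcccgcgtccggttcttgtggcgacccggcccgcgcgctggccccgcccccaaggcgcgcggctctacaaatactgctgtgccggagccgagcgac
Smad6: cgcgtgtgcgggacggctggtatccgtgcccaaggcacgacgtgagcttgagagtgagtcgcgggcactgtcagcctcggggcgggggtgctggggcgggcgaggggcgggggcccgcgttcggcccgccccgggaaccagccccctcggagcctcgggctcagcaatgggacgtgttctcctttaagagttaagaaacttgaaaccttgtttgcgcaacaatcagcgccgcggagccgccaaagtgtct

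GGCGCC occurred once each in the Id2 and Id4 windows, starting 231 and 148 bases before the start, and 9.59% of all 32851 promoters in the table held it. The Id3 window held CAGAC, starting 167 bases before the start, and GTCTG, starting 68 bases before it, and 42.2% of promoters held one or the other. None of these letters was in the Smad6 window, nor in those of Bmp4 and Smad1, while GGCGCC was in the Bmpr1a window and in 1 of the 3 listed for Smad5. Another Smad5 window held CAGAC, starting 21 bases before the start. The motifs did not overlap in the windows shown. Of the 10 genes, 8 had an entry, and Id1 and Bambi had none. These matches describe the letters only.

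On the mouse build of the deposited values (mm9, NCBIM37), GENCODE places Id1 at chr2:152561987-152563146 on the plus strand, Id2 at chr12:25778666-25780957 on the minus strand, Id3 at chr4:135699412-135701670 on the plus strand and Id4 at chr13:48356796-48359405 on the plus strand. Bmp4 lies at chr14:47003195-47010344 and Bmpr1a at chr14:35223920-35316527, both on the minus strand. Smad1 is at chr8:81862294-81923417 and Smad6 at chr9:63800953-63869866, both on the minus strand, and Smad5 at chr13:56804371-56843738 on the plus strand. Bambi is on chromosome 18. Values are given per gene. Exons of Id4, Bmp4 and Bmpr1a share 171, 89 and 290 bases with genes on the other strand, and since the strand setting of the counting was not given in the sources used here, reads in those bases are uncertain.

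Values are TPM, the share of a gene's transcripts in its library after correction for gene length, divided by a size factor for each library and written below as scaled TPM. Differences are in log2(scaled TPM + 1), a scale on which low genes change by less than their ratio, and were tested with limma with Benjamini-Hochberg adjustment over all tested genes. A gene is written as higher or lower when its adjusted p was under 0.05, and as called when it also changed more than 1.5-fold. Reads recovered from the TPM steps totalled 25507874 to 29781366 in the ribodepleted and 72639837 to 82129168 in the polyA libraries. Fewest reads lay behind Id4 (72 to 216 in the ribodepleted libraries), Smad6 (110 to 342) and Bambi (125 to 436), and most behind Bmpr1a (3292 to 5477).

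In the genotype check, Tet1 was at 143 and 124 scaled TPM in WT and at 30.0 and 30.2 in TKO cells at 0 h. Tet2 was at 55.5 and 48.1 in WT and at 7.73 and 7.17 in TKO, and Tet3 at 1.42 and 1.49 against 1.39 and 1.51. Tet1 and Tet2 were thus lower in both TKO libraries and Tet3 overlapped, and since the deleted exons were not given in the sources used here, a gene-level value cannot check each allele. All 8 ESC markers examined, Pou5f1 and Nanog among them, were above 1 scaled TPM in every library, and their sum was 4379 to 4491 in WT and 3950 to 4024 in TKO at 0 h. Of the 8, 3 were called lower in TKO cells at 0 h, and 5 were lower and 2 higher at an adjusted p under 0.05. The 3 called were Zfp42, Klf4 and Esrrb, given here in deposited TPM, before the size factor. Zfp42 was at 513 and 478 in WT against 126 and 123 in TKO. Klf4 was at 49.1 and 48.9 against 27.8 and 24.5, and Esrrb at 186 and 178 against 117 and 115. In the WT polyA libraries Zfp42 was at 169, 165 and 175, Klf4 at 80.4, 80.2 and 82.1, and Esrrb at 253, 246 and 234. The 2 TKO libraries at 4 h stood apart from each other: on the second principal component (14.5% of the variance) they lay at -2.37 and -15.0, against -15.1 and -12.1 for WT at 4 h and 8.14 and 7.81 for TKO at 0 h.

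Markers of other cell types differed between WT and TKO in the ribodepleted libraries. The summed level of 9 trophectoderm markers was 185 to 224 scaled TPM in WT and 1014 to 1025 in TKO at 0 h. Of the 6 tested 4 were called higher, where 10.5% of all tested genes were. Hand1, on this list, reached the mean of 1 scaled TPM needed for testing only through the TKO libraries. Most of the trophectoderm sum was Krt8 and Krt18, which encode keratins of simple epithelia. Single markers in this paragraph are in deposited TPM, before the size factor, so they do not add up to the scaled sums. Differences in size factor between libraries remain in them. Krt8 was at 73.8 and 91.9 in WT against 516 and 528 in TKO, and Krt18 at 62.0 and 78.2 against 483 and 490. At 4 h the sum was 221 to 234 in WT and 1053 to 1227 in TKO. The keratin Krt7 was at 1.71 and 2.71 in WT against 30.9 and 34.5 in TKO at 0 h. Of the transcription factors on the list, Tfap2c was at 49.6 and 46.1 against 52.4 and 51.1, Hand1 at 0.26 and 0.29 against 3.09 and 3.31, Eomes at 2.25 and 2.16 against 3.16 and 2.62, and Gata3 at 0.16 and 0.28 against 0.91 and 1.13. Cdx2 was at 0.77 and 0.71 against 1.24 and 1.06, and Elf5 at no more than 0.27 in any library. Sums were 8.39 to 8.83 in WT and 11.9 to 12.3 in TKO for 8 fibroblast or feeder markers, 79.2 to 84.8 and 90.5 to 90.9 for 9 primitive endoderm markers, 217 to 220 and 165 to 167 for 7 neural progenitor markers, and 3.42 to 3.45 and 3.42 to 3.72 for 6 mesoderm markers. These sums hold opposite moves. Col4a1 was at 23.1 and 27.7 in WT against 69.8 and 71.8 in TKO and Lama1 at 52.8 and 50.7 against 22.3 and 22.3, and of the 4 primitive endoderm markers tested 1 was called higher and 2 lower. Olig2 was at 19.4 and 17.1 against 0.05 and 0.03, and Nes at 17.8 and 17.3 against 31.8 and 33.7. In the WT polyA libraries Olig2 was at 0, 0 and 0.04 and Nes at 4.14, 4.44 and 4.10, so WT libraries of the 2 kinds differed too. Of 5 neural progenitor markers tested 1 was called lower, Olig2, and 1 higher, Nes. Olig2 reached the mean of 1 scaled TPM needed for testing only through the WT libraries. Over all tested genes 10.5% were called higher and 5.43% lower. The part of cells of these other types in the genotype differences below was not tested. In bulk samples fewer cells of a type and less RNA per cell cannot be told apart.

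In untreated WT cells Id1 was the most abundant of the 10 transcripts. Mean scaled TPM (± SD, n = 2) was 102 ± 14 for Id1, 48.7 ± 2.0 for Bmpr1a, 40.0 ± 0.12 for Bmp4, 39.4 ± 5.7 for Id3, 27.3 ± 2.6 for Id2, 16.7 ± 0.50 for Smad1, 14.6 ± 0.0085 for Smad5, 4.29 ± 0.067 for Id4, 3.97 ± 0.60 for Bambi and 3.01 ± 0.43 for Smad6. Bmp4 and Id3 overlapped in this order, as did Id4 and Bambi, and the other neighbours did not. In TKO cells at 0 h the order was Id1 (104 ± 4.9), Id3 (77.4 ± 1.7), Bmpr1a (61.3 ± 0.87), Id2 (58.7 ± 0.72), Smad1 (24.4 ± 1.0), Smad5 (16.2 ± 0.44), Bmp4 (9.53 ± 1.00), Id4 (8.04 ± 0.036), Smad6 (6.85 ± 0.40) and Bambi (5.44 ± 0.12), and no neighbours overlapped. Bmp4 thus stood above Id2, Smad1 and Smad5 in WT cells and below them in TKO cells.

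**Figure D1:**
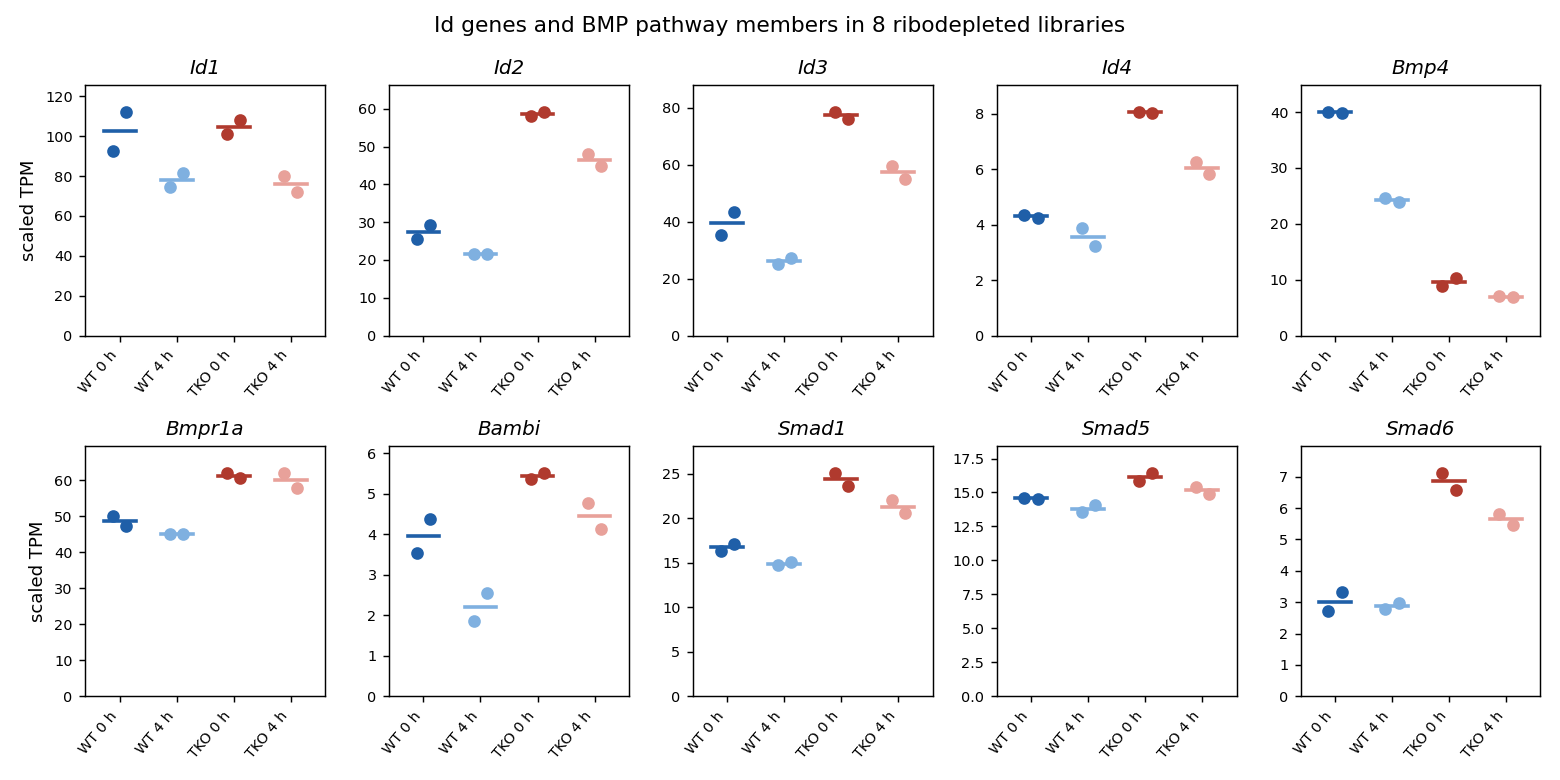
Scaled TPM (linear axes from 0) of the 10 genes in each of the 8 ribodepleted libraries. Points are libraries and bars the mean of the 2 libraries of a group. The TKO points of Id2, Id3, Id4 and Smad6 lie above all WT points and those of Bmp4 below, while Id1 overlaps between genotypes and sits lower at 4 h in both.

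The comparison of TKO with WT cells at 0 h asked which of these genes differ with loss of the Tet dioxygenases. Id2, Id3, Id4 and Smad6 were called higher in TKO cells, Bmp4 was called lower, and Id1 did not pass. Of the 10 genes 4 were called higher and 1 lower, where 15.9% of all 12467 tested genes were called, 10.5% higher and 5.43% lower. At an adjusted p under 0.05 alone, 7 were higher and 1 lower, where 56.1% of tested genes passed. The median change over the 10 was 0.45, against -0.02 over all tested genes.

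The ligand Bmp4 was at 40.1 and 39.9 scaled TPM in the WT libraries and at 8.83 and 10.2 in the TKO libraries. Its TKO values were far below both WT values, a fall by 1.96 on the log2 scale (SE 0.07, adjusted p 3.11e-07), and the TKO mean was 0.238 of the WT mean. Its receptor moved the other way: Bmpr1a was at 50.1 and 47.3 in WT against 61.9 and 60.7 in TKO. That difference of 0.33 (SE 0.05, adjusted p 0.00080) was under 1.5-fold, with no overlap between groups. The pseudoreceptor Bambi was at 3.55 and 4.39 in WT against 5.36 and 5.53 in TKO, a rise by 0.38 (SE 0.13, adjusted p 0.033). It did not pass in every setting: its adjusted p was 0.090 without TKO 0 h replicate 1, 0.122 without TKO 0 h replicate 2, 0.201 without WT 0 h replicate 1, 0.122 with quantile normalization and 0.092 with no filter on low values.

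Among the Smads, the inhibitory Smad6 changed most. It was at 2.71 and 3.31 scaled TPM in WT against 7.13 and 6.56 in TKO, so both TKO libraries were above both WT libraries. The fitted rise was 0.97 (SE 0.10, adjusted p 5.69e-05), or 1.96-fold, and the ratio of the means without a pseudocount was 2.28. Smad1, which carries the signal, was at 16.4 and 17.1 in WT against 25.1 and 23.7 in TKO, a rise by 0.52 (SE 0.06, adjusted p 0.00013) that stayed under 1.5-fold. With deposited TPM its rise was 0.61, and it was called. Smad5, which acts beside Smad1, did not pass: it was at 14.57 and 14.56 in WT against 15.8 and 16.5 in TKO, a difference of 0.14 (95% interval 0.01 to 0.27, adjusted p 0.060).

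Of the 4 Id genes 3 were called higher. Id2 was at 25.4 and 29.1 scaled TPM in WT against 58.2 and 59.2 in TKO, a rise by 1.08 (SE 0.07, adjusted p 4.39e-06). Id3 was at 35.4 and 43.4 in WT against 78.6 and 76.2 in TKO, a rise by 0.96 (SE 0.09, adjusted p 3.77e-05). These are 2.11-fold and 1.95-fold changes, and neither gene overlapped between genotypes. Id4, the least abundant of the family, was at 4.34 and 4.25 in WT against 8.06 and 8.01 in TKO, a rise by 0.77 (SE 0.09, adjusted p 0.00012). Id1 stood apart from its relatives: it was at 92.6 and 112 in WT against 101 and 108 in TKO, so the TKO values lay between the WT values. Its difference was 0.03, with a 95% interval of -0.18 to 0.25 and an adjusted p of 0.77, so the interval leaves out a change of 1.5-fold in either direction.

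The makeup of the Id transcripts differed accordingly. Id1 made up 58.7% and 59.4% of the summed TPM of the 4 Id genes in the WT libraries at 0 h and 41.1% and 43.0% in the TKO libraries. Id3 made up 22.4% and 23.0% in WT and 32.0% and 30.3% in TKO, and Id2 16.1% and 15.4% against 23.7% and 23.6%. The summed level was 158 and 189 scaled TPM in WT and 246 and 251 in TKO. At 4 h the Id1 share was 59.5% and 61.0% in WT and 41.4% and 40.5% in TKO, so the shares of the 2 genotypes did not overlap at either time.

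**Figure D2:**
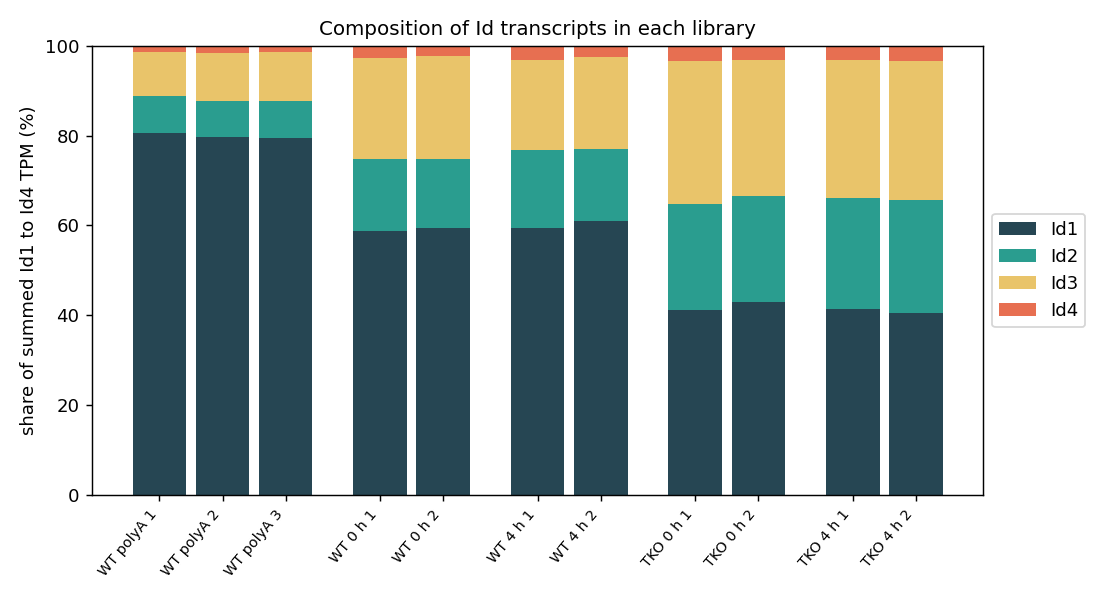
Stacked shares (%) of Id1, Id2, Id3 and Id4 in the summed TPM of the 4 genes, with 1 bar per library and libraries grouped by RNA selection, genotype and time. Id1 takes 79.5% to 80.5% in the WT polyA libraries, 58.7% to 61.0% in the ribodepleted WT libraries and 40.5% to 43.0% in the TKO libraries.

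After 4 h in α-amanitin Id2, Id3, Id4, Smad6 and Bambi were called higher in TKO than in WT cells, and Bmp4 was called lower. These are 5 of the 10 genes upward and 1 downward, where 16.8% of tested genes were called, 11% higher and 5.82% lower. At an adjusted p under 0.05 alone, 7 were higher and 1 lower, where 59.4% passed. The 4 h libraries are not those used at 0 h, so the values repeat the comparison in other samples of the same lines. The median change was 0.56 over the 10 genes and -0.01 over all tested genes.

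Id2 was at 21.7 and 21.5 scaled TPM in WT against 47.9 and 45.0 in TKO at 4 h, a difference of 1.07 (SE 0.07, adjusted p 4.52e-06). Id3 was at 25.3 and 27.2 against 59.5 and 55.1, a difference of 1.10 (SE 0.09, adjusted p 1.71e-05). Neither gene overlapped between genotypes, and both changes were close to those at 0 h. Id4 was at 3.89 and 3.24 in WT against 6.24 and 5.83 in TKO, a difference of 0.63 (SE 0.09, adjusted p 0.00033). Id4 was no longer called without WT 4 h replicate 2, where its change was 0.52, or with quantile normalization, where it was 0.47 and 5 of the 10 genes were called, both under 1.5-fold. Id1 was at 74.6 and 81.3 against 80.3 and 72.0, a difference of -0.03 (95% interval -0.25 to 0.18, adjusted p 0.77), whose sign turned to 0.12 with deposited TPM, which also moved the median of all genes by 0.14, and to 0.07 with quantile normalization.

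Bmp4 was at 24.6 and 23.9 scaled TPM in WT against 7.08 and 6.83 in TKO at 4 h, and the difference was -1.67 (SE 0.07, adjusted p 6.70e-07). Smad6 was at 2.78 and 2.97 against 5.81 and 5.47, a difference of 0.78 (SE 0.10, adjusted p 0.00017). Groups did not overlap for either the ligand or the inhibitory Smad. Bambi was at 1.86 and 2.55 against 4.77 and 4.13, a difference of 0.77 (SE 0.13, adjusted p 0.00093). Smad1 (0.49, adjusted p 0.00016) and Bmpr1a (0.40, adjusted p 0.00021) were again higher under 1.5-fold, and Smad5 again did not pass (0.13, adjusted p 0.083).

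**Figure D3:**
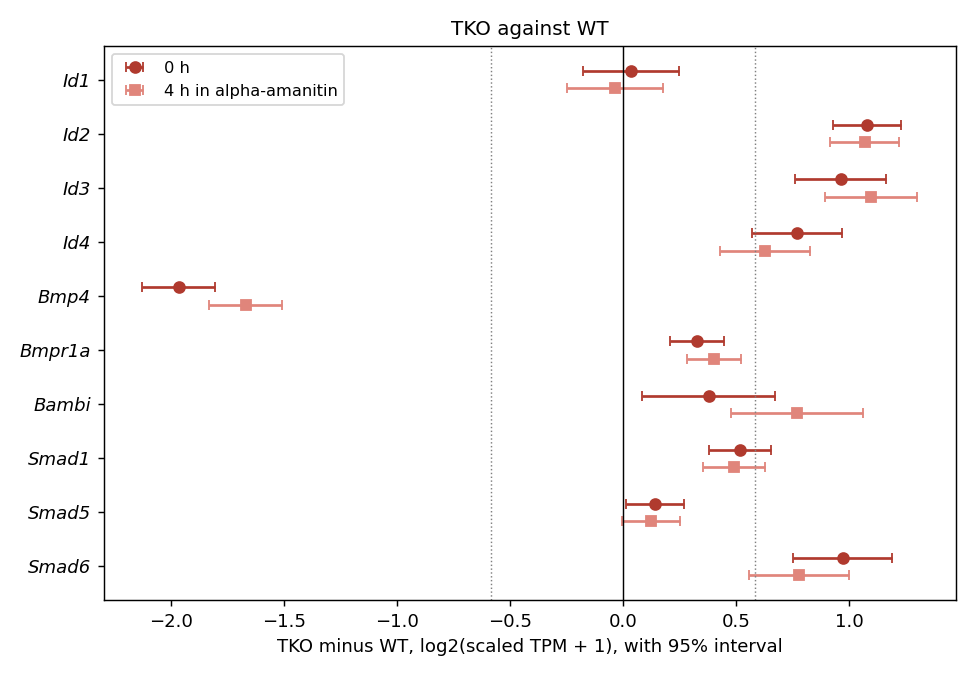
Difference between TKO and WT on the log2(scaled TPM + 1) scale with its 95% interval, for each gene at 0 h (circles) and after 4 h in α-amanitin (squares). Dotted lines mark 1.5-fold. Bmp4 lies at -1.96 and -1.67, Id2, Id3, Id4 and Smad6 lie past 1.5-fold above 0 at both times, and Id1 lies at 0.03 and -0.03.

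Transcript levels at 4 h in α-amanitin against 0 h show which RNAs lost share while RNA polymerase II was blocked. TPM values are relative, so a loss common to all transcripts cannot be seen, and no half-life was computed. In WT cells Bmp4 and Bambi were called lower, where 2.1% of tested genes were called and 2.01% called lower. Id1, Id2 and Id3 were also lower at an adjusted p under 0.05, which makes 5 of the 10 genes, where 37.7% passed in either direction. The median change of the 10 was -0.27, against 0.03 over all tested genes.

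In WT cells Bmp4 went from 40.1 and 39.9 scaled TPM to 24.6 and 23.9, a fall by 0.70 (SE 0.07, adjusted p 0.0021), and Bambi from 3.55 and 4.39 to 1.86 and 2.55, a fall by 0.64 (SE 0.13, adjusted p 0.0090). Neither overlapped between times. Id3 fell by 0.56 (SE 0.09, adjusted p 0.0060), Id1 by 0.38 (SE 0.09, adjusted p 0.015) and Id2 by 0.32 (SE 0.07, adjusted p 0.0096). The ligand, the pseudoreceptor and the 3 most abundant Id transcripts thus lost share. Id4 (-0.22, adjusted p 0.079), Smad1 (-0.16, adjusted p 0.065), Bmpr1a (-0.11, adjusted p 0.131), Smad5 (-0.07, adjusted p 0.332) and Smad6 (-0.05, adjusted p 0.730) did not pass, and with quantile normalization Smad5 and Smad6 lay at 0.0040 and 0.039. These calls rest on few libraries: without WT 4 h replicate 1 only Bmp4 of the 10 genes passed, and Bambi was no longer called without it or without WT 0 h replicate 2. Id3 became called without WT 0 h replicate 1 or WT 4 h replicate 2, which made 3 calls.

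In TKO cells 0 of the 10 genes passed, where 0.16% of tested genes were called and 0.265% had an adjusted p under 0.05 by limma. All 10 changes were below 0, and 7 had an unadjusted p under 0.05, as did 3110 of the 12467 tested genes. Id1 went from 101 and 108 scaled TPM to 80.3 and 72.0 (-0.45, adjusted p 0.088), Id3 from 78.6 and 76.2 to 59.5 and 55.1 (-0.43, adjusted p 0.090) and Bmp4 from 8.83 and 10.2 to 7.08 and 6.83 (-0.40, adjusted p 0.064). Every one of these 4 h values was below both 0 h values. Id4 (-0.36), Id2 (-0.33), Bambi (-0.24), Smad6 (-0.24), Smad1 (-0.19), Smad5 (-0.09) and Bmpr1a (-0.03) had adjusted p values from 0.084 to 0.727. The 2 TKO libraries at 4 h differed from each other. Without TKO 4 h replicate 1 the changes of Id1, Id2, Id3 and Id4 were -0.53, -0.37, -0.48 and -0.40. Without TKO 4 h replicate 2 they were -0.37, -0.29, -0.37 and -0.32, all under 1.5-fold. Each of these fits leaves 1 library in the group, so only sizes are given. With limma voom on recovered reads 4 of the 10 genes passed and 0 were called, where 53 of all 12467 tested genes were called. With deposited TPM 4 of the 10 also passed and 0 were called, where 53 of 12481 tested genes were called. That setting moved the median of all genes to -0.07. The result that 0 of the 10 passed thus depends on the setting. No background share of genes that passed is given for these settings, so neither count of 4 can be set against one.

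**Figure D4:**
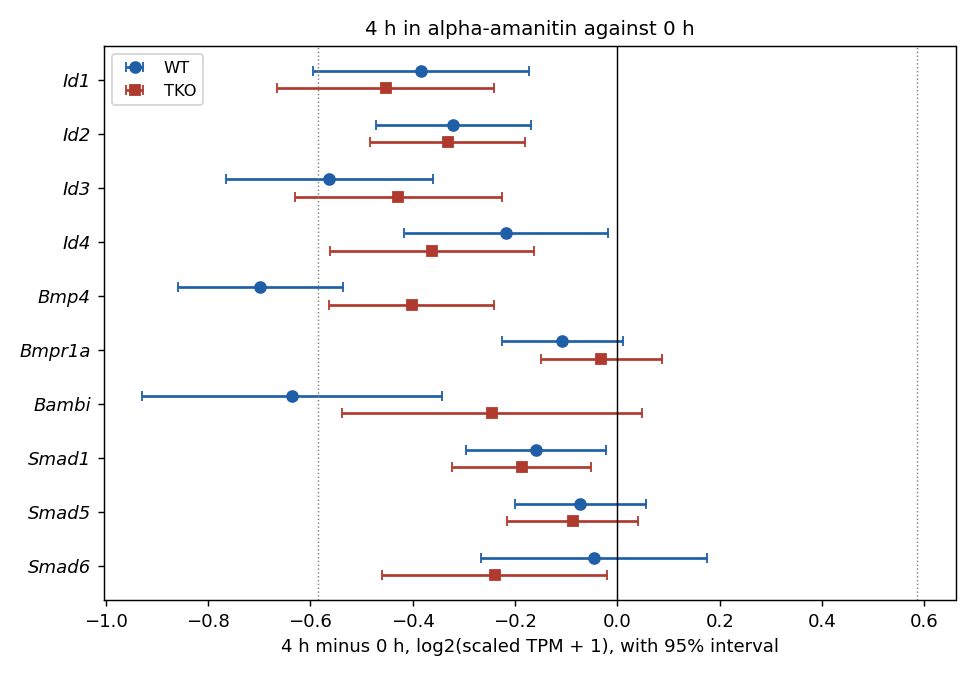
Difference between 4 h in α-amanitin and 0 h on the log2(scaled TPM + 1) scale with its 95% interval, in WT (circles) and TKO cells (squares). Dotted lines mark 1.5-fold. Every point lies below 0, Bmp4 and Bambi lie past 1.5-fold in WT at -0.70 and -0.64, and the intervals of the genotypes overlap for each gene but touch little for Bmp4.

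Whether the change at 4 h differs between genotypes was tested as an interaction, with TKO minus WT. None of the 10 genes passed, and 0% of all tested genes were called by limma or by limma voom on recovered reads. At an unadjusted p under 0.05, 938 of 12467 genes and 1 of the 10, Bmp4, passed. Bmp4 differed by 0.30 (95% interval 0.07 to 0.52, adjusted p 0.66), its share falling less in TKO cells, and Bambi by 0.39 (-0.02 to 0.81, adjusted p 0.68). For Id1, Id2, Id3 and Id4 the differences were -0.07 (-0.37 to 0.23), -0.01 (-0.23 to 0.20), 0.13 (-0.15 to 0.42) and -0.14 (-0.43 to 0.14). Those of Id1, Id2 and Id3 changed sign when some libraries were left out, and that of Id2 also with deposited TPM, to 0.05. A difference of 1.5-fold between genotypes lies outside the interval for each of the 4 Id genes.

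Other genes of the BMP pathway were described from a list of 55 ligands, receptors, co-receptors, Smads, inhibitors, antagonists, targets and E protein partners of Id. Of these 33 passed the filter on low values in the ribodepleted libraries, and the other 22 did not. At 0 h 4 were called higher in TKO and 0 lower, and 13 were higher and 5 lower at an adjusted p under 0.05. Both upward counts include Nog and Bmp7, which passed the filter only through the TKO libraries. Over all tested genes 15.9% were called and 56.1% had an adjusted p under 0.05, so both counts lie near the background. The median change of the 33 was 0.13.

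The 4 called genes were Bmp7, Bmp8b, Nog and Nbl1. Bmp7 and Bmp8b are BMP ligands, and Nog (noggin) and Nbl1 are secreted antagonists that bind BMPs. Nbl1 was at 1.10 and 1.35 scaled TPM in WT against 3.48 and 4.43 in TKO, a rise by 1.15 (SE 0.12, adjusted p 6.78e-05). Bmp8b was at 1.89 and 1.62 against 4.68 and 5.68 and rose by 1.17, though its exons share 133 bases with Ppie on the other strand. Nog was at 0.69 and 0.36 in WT, on 19 and 10 reads, against 2.32 and 2.75 in TKO. Bmp7, named after its values were seen, was at 0.78 and 1.07 against 3.40 and 2.80. The WT means of Nog and Bmp7 at 0 h were below the filter of 1 scaled TPM, which these 2 genes passed through the TKO libraries, so their values are given without a test.

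By role, 2 of 4 tested receptors (Acvr1 and Bmpr2) and 3 of 4 tested co-receptors passed upward at an adjusted p under 0.05, and 1 co-receptor passed downward, each under 1.5-fold, where 56.1% of all tested genes passed. Smad7, the inhibitory relative of Smad6, was named after its values were seen. It was at 39.5 and 39.2 scaled TPM in WT against 32.4 and 31.5 in TKO at 0 h, a difference of -0.29 (SE 0.10, adjusted p 0.033). With 1 library left out it passed in only 2 of 8 fits, with adjusted p values up to 0.116, and it did not pass with deposited TPM (0.190) or with no filter on low values (0.053). Of the 5 tested targets other than Id genes, 2 were higher and 2 lower, and of the 3 E protein partners only 1 passed, upward.

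At 4 h 7 of the 33 were called higher in TKO and 0 lower, with 17 higher and 3 lower at an adjusted p under 0.05. Both upward counts again include Nog and Bmp7. Over all tested genes 16.8% were called, 11% higher, and 59.4% had an adjusted p under 0.05. Bmp8b rose by 1.13 and Nbl1 by 1.03. Bmp7 was at 1.11 and 0.99 scaled TPM in WT against 3.77 and 3.69 in TKO, and Nog at 0.47 and 0.58 against 2.33 and 1.38, again without a test. Acvr1, Smurf2 and Rgmb, named after their values were seen, rose by 0.66, 0.64 and 0.64. Acvr1 is a type I BMP receptor, Smurf2 a ubiquitin ligase that acts on Smads and receptors, and Rgmb a co-receptor.

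With α-amanitin in WT cells, 1 of the 33 was called, downward: Klf2, a transcription factor, went from 118 and 124 scaled TPM to 70.8 and 86.2, a fall by 0.62 (SE 0.10, adjusted p 0.0059). At an adjusted p under 0.05 alone 10 were lower and 2 higher. Over all tested genes 2.1% were called and 37.7% had an adjusted p under 0.05, close to the share of the 33. The median of the 33 was -0.12. In TKO cells, and in the interaction, 0 of the 33 passed by limma.

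**Figure D5:**
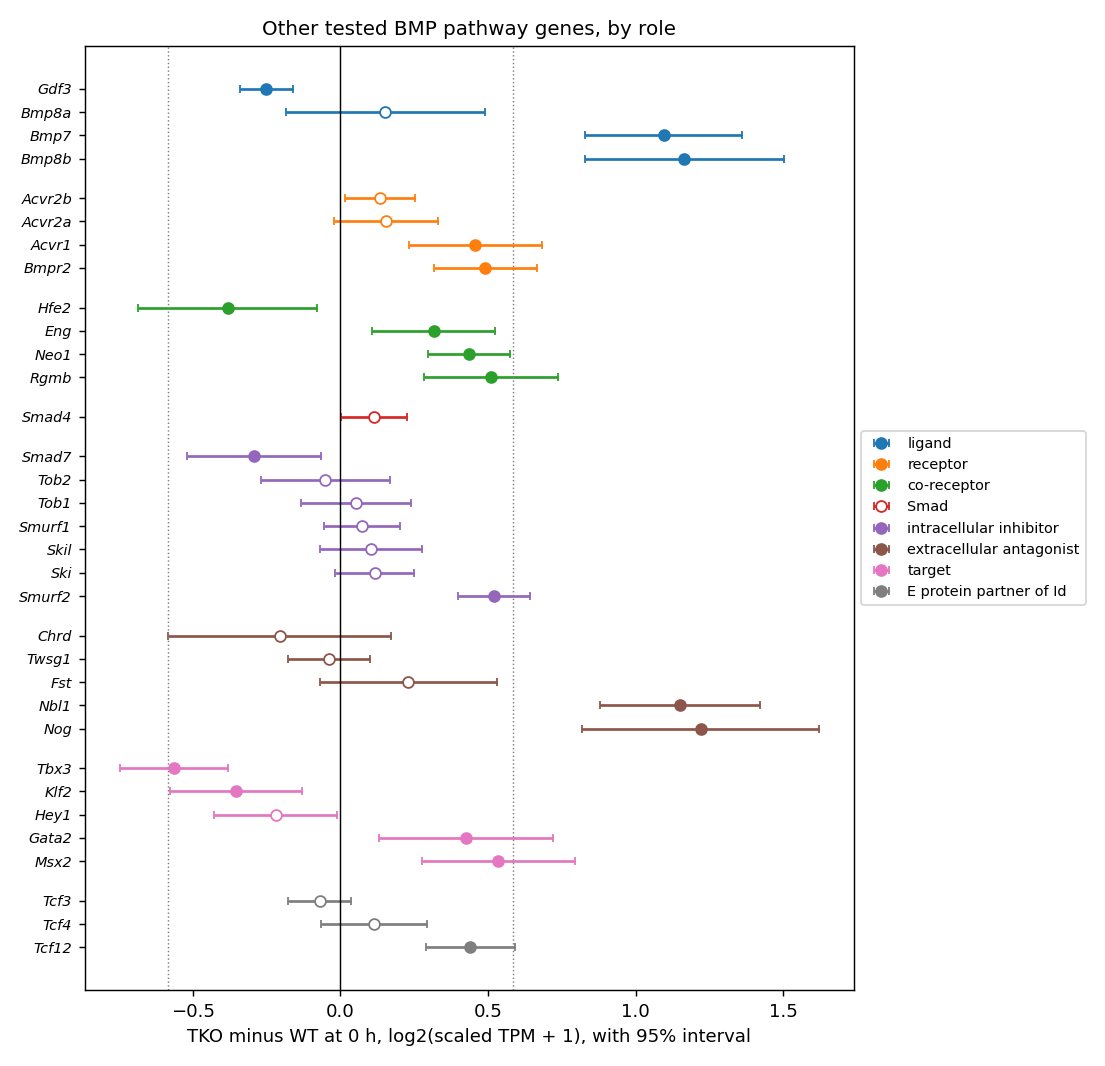
Difference between TKO and WT at 0 h on the log2(scaled TPM + 1) scale with its 95% interval for the 33 tested pathway genes, coloured by role. Filled circles had an adjusted p under 0.05, open circles did not, and dotted lines mark 1.5-fold. The ligand Bmp8b and the antagonist Nbl1 lie past the upper line, at 1.17 and 1.15, as do Bmp7 and Nog, which passed the filter on low values through the TKO libraries.

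PolyA and ribodepleted libraries of untreated WT cells were compared to show how far each transcript's level differs between these 2 sets. RNA selection, sequencing experiment and depth differ together and cannot be told apart. Whether the 2 sets came from the same cultures was not given in the sources used here, so a difference between the cells cannot be told apart either. In deposited TPM Sox1 was at 13.7, 13.9 and 13.6 in polyA against 1.63 and 1.84 in ribodepleted libraries. Krt18 was at 13.7, 14.6 and 15.2 against 62.0 and 78.2. The size factors were computed over these 5 libraries, so the WT levels differ slightly from those above. The summed ESC markers were at 12498 to 12902 and the trophectoderm markers at 68.5 to 72.1 in the polyA libraries, and their part in the differences was not tested. Of the 10 genes 2 were called higher in polyA libraries, Id1 and Bmp4, and 0 lower, where 35.1% of 12481 tested genes were called, 18.7% higher and 16.4% lower. At an adjusted p under 0.05 alone 3 were higher and 6 lower, where 81% passed. The median over the 10 was -0.17, against -0.01 over all tested genes.

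Id1 was at 243, 232 and 243 scaled TPM in the polyA libraries and at 97.8 and 119 in the ribodepleted libraries, a difference of 1.14 (SE 0.07, adjusted p 1.10e-06). Bmp4 was at 69.9, 71.6 and 73.4 against 42.3 and 42.1, a difference of 0.75 (SE 0.04, adjusted p 3.01e-07). Neither overlapped between library kinds. Id3 was at 29.1, 30.6 and 33.0 against 37.4 and 45.9 (-0.41, adjusted p 0.0018), and Id2 at 25.3, 23.7 and 25.3 against 26.9 and 30.8 (-0.21, adjusted p 0.013). Id2 no longer passed with deposited TPM (0.106), quantile normalization (0.055) or no filter (0.052), nor without WT 0 h replicate 2 (0.094) or WT polyA replicate 2 (0.056), all adjusted p values. Id1 was thus higher and Id3 lower in polyA libraries, and Id1 made up 79.5% to 80.5% of Id transcripts in polyA libraries.

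Smad1 was at 11.5, 11.9 and 11.2 scaled TPM in polyA and 17.3 and 18.0 in ribodepleted libraries (-0.57, adjusted p 9.45e-06), close to the 1.5-fold limit, and it was called without WT 0 h replicate 1 or WT polyA replicate 2. Bmpr1a was at 36.6, 37.5 and 35.3 against 52.9 and 49.9 (-0.48, adjusted p 1.21e-05), and Bambi at 2.87, 2.60 and 3.02 against 3.75 and 4.64 (-0.43, adjusted p 0.0023). These 3 genes of the receptor side and its Smad had lower values in polyA libraries. Smad5 (-0.14, adjusted p 0.027) and Smad6 (0.23, adjusted p 0.034) passed in the fit of all 5 libraries, but without 1 library Smad5 passed in 0 of 5 fits and Smad6 in 2 of 5, and Smad5 passed in 4 of 8 other settings. Id4 did not pass at -0.01 (adjusted p 0.92), or 0.08 with deposited TPM and 0.04 with quantile normalization. Of the 32 tested pathway genes 4 were called higher: Tbx3, Acvrl1, Eng and Acvr1, the last named after its values were seen. Called lower were 3, Hey1, Fst and Acvr2b. Over all tested genes 35.1% were called, 18.7% higher and 16.4% lower. The counts of pathway genes include Acvrl1 and Fst, which each passed the filter on low values through only 1 library kind.

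Tbx3, a transcription factor, was at 43.3, 40.7 and 40.1 scaled TPM in polyA and 15.0 and 14.7 in ribodepleted libraries (1.42). The co-receptor Eng (endoglin) lay at 0.79, although exons of Eng share 124 bases with Ak1. In the other direction Hey1, a Notch and BMP target, was at 1.502, 1.389 and 1.445 against 4.11 and 4.45 (-1.11). The receptor Acvr2b lay at -0.75. Acvrl1, a type I receptor also called ALK1, was at 1.42, 1.75 and 1.73 in polyA against 0.24 and 0.37 in ribodepleted libraries, and the activin and BMP antagonist Fst (follistatin) at 0.88, 0.96 and 0.69 against 2.44 and 3.38. Acvrl1 passed the filter on low values through the polyA and Fst through the ribodepleted libraries, so neither is given a test.

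Among 12466 other tested genes, those most like Id1 over the 8 ribodepleted libraries, by Pearson correlation of log2(scaled TPM + 1), were Sox11 (r = 0.97), Cyb561d1 (r = 0.96) and Bcl7a (r = 0.96). The 8 points share size factors and fall into 4 groups, so these values describe likeness only. Sox11, which encodes a transcription factor, was at 21.3 and 22.4 scaled TPM in WT against 21.5 and 22.1 in TKO at 0 h, and at 17.8 and 19.5 against 18.9 and 17.3 at 4 h. Like Id1 it had lower values at 4 h in both genotypes and overlapped between them.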

How the data were processed

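RNA-Seq was analysed from 11 libraries in 5 groups, assigned from the sample titles. The deposited TPM values were made by the authors: low-complexity, rRNA and tRNA reads were removed (AfterQC, Bowtie2), adapters were trimmed (Trimmomatic), reads were mapped to mm9 with STAR and RefSeq genes, and HTSeq gene counts were converted to TPM. Tool versions and the strand setting are not given in the sources used here.

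Each library's TPM were scaled by a median-of-ratios size factor. The log2 of scaled TPM plus a pseudocount of 1 went into limma 3.58.1 (lmFit, eBayes with trend; R 4.3.3) for genes with a mean scaled TPM above 1: 12467 genes over 8 ribodepleted libraries with 1 coefficient per group, and 12481 over 5 untreated WT libraries. Calls needed a Benjamini-Hochberg adjusted p under 0.05 and more than 1.5-fold, the limits the study used in its own count-based test. Reads were recovered from the TPM steps for 100% of the 19869 genes above 0 (to within 0.01 reads), up to a divisor common to the libraries of a gene. Intervals cover the spread between libraries. Replicates differed by more than counting noise (chi-square over degrees of freedom 1.56 to 11.1).

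Members and lists were chosen with earlier results of these data known. Named are the 10 members and, per comparison, the 3 called pathway genes with the largest rise and fall, the 3 genes most like the most abundant Id gene, and Tet1, Tet2 and Tet3. Alternatives covered scaling, pseudocount, filter, replicate block, samples fitted, each library left out, and limma voom on recovered reads.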

Additional observations from a re-analysis of the deposited data

How the results depend on the processing

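With a pseudocount of 5 TPM, 3 of the 10 genes were called at 0 h and 3 at 4 h in the TKO comparison (5 and 6 with 1 TPM), because Id4, Smad6 and, at 4 h, Bambi are low, and 1 in WT cells at 4 h against 0 h (2 with 1 TPM). Quantile normalization also left 1 call there, and 5 at 4 h in the TKO comparison without Id4. Leaving out each library gave 5 to 5 calls at 0 h, 5 to 6 at 4 h, 1 to 3 for WT 4 h against 0 h, 0 to 0 for TKO 4 h against 0 h, 0 to 0 for the interaction and 2 to 3 for polyA. With a minimum of 5 scaled TPM, Smad6 and Bambi were not tested. Id2, Id3 and Bmp4 were called in the TKO comparisons under all settings run.

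Deposited TPM moved the median of all genes to 0.14 for TKO against WT at 4 h and to -0.11 for WT 4 h against 0 h. The share of calls at 4 h that were higher in TKO was 65.5%, 81.4% with deposited TPM and 54.5% with quantile normalization.

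Changes of sign were seen only in values near 0 that did not pass, and the cause was not tested. Id1 in TKO against WT at 4 h went to 0.121 with deposited TPM, 0.0718 with quantile normalization and 0.0039 with a minimum of 5 scaled TPM. With deposited TPM the interaction went to 0.0452 for Id2, 0.0274 for Smad1 and 0.0416 for Smad5, and with a minimum of 5 to 0.0028 for Id2. In WT 4 h against 0 h quantile normalization gave 0.0040 for Smad5 and 0.0388 for Smad6. Id4 in polyA against ribodepleted went to 0.0765 with deposited TPM, 0.0352 with quantile normalization and 0.0090 with no filter. Leaving out libraries, Id1 ranged from -0.110 to 0.166 at 0 h and from -0.107 to 0.0462 at 4 h, Smad6 in WT 4 h against 0 h from -0.156 to 0.0624, Bmpr1a in TKO 4 h against 0 h from -0.0818 to 0.0212 and Id4 in polyA from -0.0523 to 0.0297. The interaction ranged from -0.206 to 0.0709 for Id1, -0.105 to 0.0852 for Id2, -0.0084 to 0.280 for Id3, -0.0697 to 0.0220 for Smad1 and -0.0520 to 0.0195 for Smad5.

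Libraries with the same replicate number deviated together little (r from -0.04 to 0.12). With 2 libraries per group this cannot show whether samples were paired, and the main fit treated them as unpaired. With a replicate block, 5, 6, 2, 0, 0 and 2 of the 10 genes were called at 0 h, at 4 h, in WT 4 h against 0 h, in TKO 4 h against 0 h, in the interaction and in polyA, the counts without the block, and Id4 in polyA went to 0.0230. The fits leaving 1 library in a group assume that it varies like the others. Over all single genes named and alternatives run, 1237 values kept their direction and side of an adjusted p of 0.05, 38 kept their direction but no longer passed, 30 kept it and newly passed, and 33 changed sign.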
